A study of Mus musculus with 11 samples.

Results

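T cell receptor signalling was followed at its first steps, through 9 genes that build the receptor complex or pass on its first signal: Cd3d, Cd3e, Cd3g and Cd247, which encode the CD3 delta, epsilon and gamma chains and the zeta chain; Cd4, the co-receptor; Lck and Zap70, the first kinases; and Lat and Lcp2, the adaptors LAT and SLP-76. They were listed by symbol, and all 9 were found among the 29224 genes of the bulk table and the 31053 features of the single-cell matrix. The series holds 11 mouse samples, of which 3 are used, all from draining lymph nodes of C57BL/6 mice. The bulk libraries are 1 of follicular regulatory T (Tfr) cells from Sostdc1 knockout (KO) mice, whose genotype is labelled homozygous, and 1 of Tfr cells from wild-type (WT) mice; Tfr cells were sorted as CXCR5+ PD1+ GITRhi. The third sample is 1 single-cell library of CD44+ CD4+ T cells from mice heterozygous for a Sostdc1-EGFP reporter allele. No source used here gives the number or age of the animals behind a library.

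The αβ receptor chains bind peptide on MHC molecules but have almost no tail inside the cell, so the signal starts on the tyrosine motifs of the CD3 and zeta chains. Lck, which is held on the tail of CD4, phosphorylates those motifs, ZAP-70 docks on them, and ZAP-70 then phosphorylates LAT and SLP-76, which together gather phospholipase C gamma and Vav. In follicular helper T (Tfh) cells and Tfr cells this route is known to run while the cells meet antigen-presenting B cells, and Nr4a1 and Egr1 are early genes that rise shortly after receptor signals.

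The promoters of the 4 chain genes and of Lcp2 are shown because the chains form 1 complex and Lcp2 stood furthest apart in the bulk libraries. RefSeq promoter windows of build GRCm38.p6 matched 8 of the 9 genes, and the 250 bases before the annotated start are printed 5′ to 3′ on the gene's strand. Capitals mark matches on either strand to AGGAAG (the core read by ETS factors), CAGGTG (an E box), TGTGGT (RUNX) or GGGCGG (a GC box).
Cd3g, chr9:44980432-44980681, minus strand: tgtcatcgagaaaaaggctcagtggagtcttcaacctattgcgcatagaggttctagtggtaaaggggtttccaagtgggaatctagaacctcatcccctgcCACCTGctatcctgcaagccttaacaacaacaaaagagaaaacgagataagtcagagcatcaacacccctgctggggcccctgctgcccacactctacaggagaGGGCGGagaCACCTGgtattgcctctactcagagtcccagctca
Cd3d, chr9:44981536-44981785, plus strand: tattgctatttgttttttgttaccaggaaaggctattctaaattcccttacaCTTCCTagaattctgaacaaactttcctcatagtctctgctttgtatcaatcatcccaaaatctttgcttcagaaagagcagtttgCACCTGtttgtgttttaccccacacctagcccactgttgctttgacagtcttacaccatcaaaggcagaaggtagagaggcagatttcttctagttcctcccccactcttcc
Cd3e, chr9:45009612-45009861, minus strand: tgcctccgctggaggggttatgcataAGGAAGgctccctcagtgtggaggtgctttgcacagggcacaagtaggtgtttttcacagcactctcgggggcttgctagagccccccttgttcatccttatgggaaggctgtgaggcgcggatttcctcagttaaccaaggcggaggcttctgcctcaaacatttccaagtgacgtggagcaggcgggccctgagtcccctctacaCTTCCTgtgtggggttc
Cd247, chr1:165788431-165788680, plus strand: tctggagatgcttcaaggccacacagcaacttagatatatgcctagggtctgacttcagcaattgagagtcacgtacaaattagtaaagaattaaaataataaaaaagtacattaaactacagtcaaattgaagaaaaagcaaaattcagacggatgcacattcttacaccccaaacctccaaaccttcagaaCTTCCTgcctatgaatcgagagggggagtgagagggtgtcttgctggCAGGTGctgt
Lcp2, chr11:34046678-34046927, plus strand: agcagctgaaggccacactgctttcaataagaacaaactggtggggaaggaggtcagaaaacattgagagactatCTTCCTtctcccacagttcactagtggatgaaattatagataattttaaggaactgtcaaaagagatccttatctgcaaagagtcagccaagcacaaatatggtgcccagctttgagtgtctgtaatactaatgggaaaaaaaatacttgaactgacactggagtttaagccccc
The ETS letters stood in the windows of Cd3d, Cd3e, Cd247 and Lcp2, the E box in those of Cd3g, Cd3d and Cd247, and the GC box in that of Cd3g. Among 32851 windows of the same length, 29.5% held the ETS letters, 17.2% the E box, 32.7% the GC box and 14.0% the RUNX letters, so a match is common and describes only these letters. Lck has 2 and Zap70 has 3 annotated starts, and their windows are not printed. Cd3g and Cd3d lie head to head on chromosome 9, with 1338 bases between the genes, and Cd3e lies 11683 bases from Cd3d.

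The library labelled KO held 27777625 counts and the library labelled WT 18076300. Sostdc1 went against the labels, with 458 counts (16.5 CPM, counts per 1000000 counts) in the library labelled KO and 4 counts (0.221 CPM) in the library labelled WT; whether the counted part of the gene lies inside the deleted part is not given, so every direction below is one between libraries by their labels. The libraries also differed in sex-linked genes, with 34234 and 39 counts of Xist and 6 and 3557 counts of Ddx3y in the libraries labelled KO and WT. With 1 library per group there is no test of genotype, and the intervals below cover counting error only. Of the genes of the sort, Cxcr5 had 62.8 and 55.7 CPM, Pdcd1 (PD1) 229 and 164 CPM and Tnfrsf18 (GITR) 276 and 165 CPM in the libraries labelled KO and WT. Foxp3, the transcription factor of Treg cells, was not part of the sort and had 1164 and 1471 CPM. The 4 Treg markers, Foxp3 among them, summed to 8932 and 6679 CPM in the libraries labelled KO and WT. Their median log2 ratio was 0.46, so Foxp3 went against the direction of its list. The single-cell library held 15002 barcodes and a median of 5673 UMIs (unique molecules) per barcode, with no barcode listed more than once.

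In the bulk Tfr libraries the chain genes, Cd4, Lck and Lcp2 were higher in the library labelled KO, Zap70 was lower and Lat was nearly level. Lcp2 alone passed the size rule of at least 2-fold with at least 5 CPM in either library, which makes 1 of 9 genes higher and 0 of 9 lower. Among all 10194 genes with 5 CPM, 2.6% were higher by that rule and 9.12% lower, 11.7% in either direction. The median log2 ratio of the 9 genes was 0.56, against -0.04 for all genes tested, whose middle 50% lay between -0.45 and 0.28. Scaling by TMM factors in place of totals shifted the median of all genes by 0.15 on the log2 scale and DESeq2 size factors shifted it by 0.22; the 9 genes had a median of 0.71 under TMM, against 0.11 for all genes.

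Among the chains, Cd247 (ENSMUSG00000005763) had 348 CPM in the library labelled KO, against 208 CPM in the library labelled WT, a ratio of 1.67 (95% interval 1.61 to 1.74). Cd3g (ENSMUSG00000002033) had 316 CPM in the library labelled KO, against 199 CPM in the library labelled WT, a ratio of 1.59 (1.53 to 1.65). Cd3d (ENSMUSG00000032094) stood at 253 and 171 CPM and Cd3e (ENSMUSG00000032093) at 295 and 200.1 CPM in the libraries labelled KO and WT, with ratios of 1.48 and 1.47. All 4 chains were therefore higher in the library labelled KO, within a narrow span of ratios. The receptor chains they assemble with were higher there too, since Trac, Trbc1 and Trbc2 summed to 1276 CPM in the library labelled KO, against 835 CPM in the library labelled WT; Trbc1 and Trbc2 are near-identical copies, so how their reads were split is uncertain. Fewer T cells in a library and less RNA per cell cannot be told apart in such sums.

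Cd4 (ENSMUSG00000023274) had 531 CPM in the library labelled KO, against 409 CPM in the library labelled WT, a ratio of 1.30 (1.26 to 1.34). The kinases pointed in opposite directions. Lck (ENSMUSG00000000409), which starts the cascade, had 594 CPM in the library labelled KO, against 413 CPM in the library labelled WT, a ratio of 1.44 (1.40 to 1.48). Zap70 (ENSMUSG00000026117), the kinase that reads the phosphorylated chains, had 377 CPM in the library labelled KO, against 516 CPM in the library labelled WT, a ratio of 0.730 (0.709 to 0.750). Zap70 was the only 1 of the 9 genes that stayed lower under every scaling, with a log2 ratio between -0.45 and -0.23 over the settings run. The adaptors parted as well. Lcp2 (ENSMUSG00000002699) had 1218 CPM in the library labelled KO, against 568 CPM in the library labelled WT, a ratio of 2.15 (2.10 to 2.19) that 98.0% of genes lay below. Lat (ENSMUSG00000030742) had 314 CPM in the library labelled KO, against 338 CPM in the library labelled WT, a ratio of 0.927 (0.897 to 0.958), but its log2 ratio of -0.11 flipped to 0.04 under TMM and 0.11 under DESeq2 scaling.

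**Figure D1:**
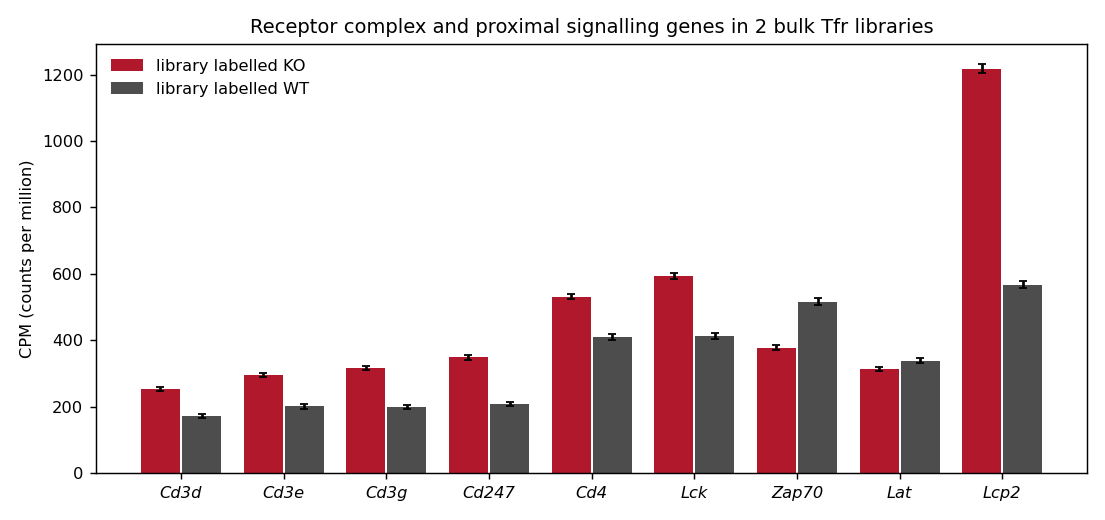
Level in CPM (vertical axis) of the 9 genes in the bulk Tfr libraries labelled KO (red) and WT (grey), with 95% Poisson intervals as bars, 1 library per label. Lcp2 reached 1218 CPM in the library labelled KO, and Zap70 and Lat were the genes with the lower bar there; heights of different genes are not comparable, since transcript length was not used.

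Other marker genes moved with the labels beside these results, and their part in them was not tested. None of the myeloid, B cell, NK, CD8 or gamma-delta markers was at 0 in either library. Myeloid markers (5 of 5 measured) summed to 43.6 CPM in the library labelled KO, against 19.2 CPM in the library labelled WT, B cell markers (4 of 4) to 10.8 and 12.4 CPM, NK markers (4 of 4) to 1.58 and 1.05 CPM, and CD8 markers (2 of 2) to 12.7 and 10.4 CPM. Lcp2 is a gene that myeloid cells also use, and Lyz2, a myeloid lysozyme, had 25.9 CPM in the library labelled KO, against 8.80 CPM in the library labelled WT. Il21, a cytokine of Tfh cells, had 82.8 CPM in the library labelled KO, against 4.09 CPM in the library labelled WT. It was the only 1 of 5 Tfh markers past 2-fold. The 5, Il21 among them, summed to 403 and 254 CPM, with a median log2 ratio of 0.23. Of the early response genes, Nr4a1 had 1045 CPM in the library labelled KO, against 2299 CPM in the library labelled WT. Nr4a3 differed little, at 1363 and 1352 CPM. The 5 markers of stimulation summed to 3557 and 4719 CPM, but their median log2 ratio was 0.01. Nr4a1 was the only 1 of these 5 past 2-fold, so the sums do not describe the markers as a group. Among markers of resting T cells, Klf2, a factor that keeps T cells circulating, had 8.82 CPM in the library labelled KO, against 59.1 CPM in the library labelled WT, and its target S1pr1, the receptor for exit from lymph nodes, had 22.1 and 48.1 CPM. Lef1 and Ccr7 differed less, at 27.4 and 37.0 CPM and at 125 and 133 CPM. Cd247 overlaps Pou2f1 in the annotation, and no source used here says if reads were counted by strand; Pou2f1 itself had 80.8 and 89.5 CPM in the libraries labelled KO and WT.

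Of 75 further genes of the pathway, grouped in 6 lists, 73 passed 5 CPM, 5 were at least 2-fold higher in the library labelled KO and 2 lower, where 2.6% and 9.12% of all 10194 genes were, and their median log2 ratio was 0.03. Within the complex that LAT and SLP-76 gather (19 of 20 genes tested, 1 higher, 0 lower), Themis, an adaptor that binds Grb2, had 36.4 CPM in the library labelled KO, against 12.8 CPM in the library labelled WT, a ratio of 2.85. Among 19 brakes on proximal signalling, 2 were higher and 1 lower. The phosphatase gene Ptpn22 had 472 CPM in the library labelled KO, against 200.2 CPM in the library labelled WT, Lax1, a LAT-like adaptor that damps signalling, had 80.1 and 39.1 CPM, and the docking protein gene Dok1 had 37.9 and 91.4 CPM.

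In the calcium and NFAT branch (15 genes, 0 higher, 1 lower) the median log2 ratio was -0.24. Itpr3, a calcium channel of the endoplasmic reticulum, had 60.2 CPM in the library labelled KO, against 163 CPM in the library labelled WT, a ratio of 0.368, and the calcium channel gene Orai1 had 95.6 and 178 CPM, a ratio of 0.537. Nfatc2, a transcription factor released by calcineurin, had 123 and 219 CPM. The T lineage surface gene Thy1 had 461 CPM in the library labelled KO, against 169 CPM in the library labelled WT, a ratio of 2.73. Kinases and phosphatases that act on Lck and ZAP-70 had 0 of 6 tested genes past 2-fold; the phosphatase gene Ptprc (CD45) had a ratio of 1.51.

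Single cells were grouped by UMIs of marker genes that are not among the 9. Of 11744 cells kept, 10102 had a UMI of Trac, Trbc1 or Trbc2 and next to none of other lineages, and 6307 of these fell into 5 gates: 73 Tfr cells (Foxp3, Cxcr5 and Pdcd1), 725 Tfh cells (Cxcr5 and Pdcd1, no Foxp3), 1552 Treg cells (Foxp3, neither of the others), 210 stimulated cells (Nr4a1, no Foxp3, outside the Tfh gate) and 3747 resting cells (Ccr7, no Nr4a1 or Foxp3, outside the Tfh gate). Several markers that were not used in the gates differed in the direction of the gates' names. Bcl6 and Il21 reached 66.0 and 77.5 CPM (here of UMIs) in the Tfh gate, against 8.01 and 4.76 CPM in the resting gate. Ctla4 and Ikzf2 reached 372 and 741 CPM in the Tfr gate and 341 and 793 CPM in the Treg gate, against 36.2 and 76.2 CPM in the resting gate. Egr1 had 238 CPM in the stimulated gate and 26.5 CPM in the resting gate. In the 5 gates B cell markers summed to 8.65 to 19.5 CPM and myeloid markers to 8.58 to 11.01 CPM; NK markers summed to 9.96 CPM in the Tfh gate and to 0.827 to 4.32 CPM in the others. Cd8b1, a chain of CD8, had 11.8, 8.03, 17.7, 9.13 and 30.8 CPM in the Tfr, Tfh, Treg, stimulated and resting gates, and Cd8a, the other chain, reached 9.40 CPM in the resting gate and was at 0 in the Tfr and Tfh gates. Trdc, a gamma-delta receptor gene, had 17.7 CPM in the Tfh gate, 6.73 CPM in the stimulated and 0 in the Tfr gate, and Tcrg-C1 reached 8.65 CPM in the stimulated gate. Depth and composition also differed between gates: median UMIs per cell were 9803 in the Tfr, 7334 in the Tfh, 5850.5 in the Treg, 6599.5 in the stimulated and 6101 in the resting gate, ribosomal protein genes took 27.4%, 27.8%, 28.9%, 31.5% and 39.5% of UMIs in the same order, and 46.6%, 34.5%, 31.3%, 27.1% and 14.2% of cells had a UMI of the cycling genes Mki67 or Top2a. The part of these differences in the results below was not tested except where a value is given.

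All 9 genes were detected in each of the 5 T cell gates, and 8 of the 9 were highest in the Tfh gate. The CD3 and zeta chains summed to 3013 CPM in the Tfr, 3665 in the Tfh, 2436 in the Treg, 2871 in the stimulated and 2515 in the resting gate, against 86.1 CPM in 318 B cells gated on B cell genes without a receptor chain UMI. Cd3d and Cd3g made up most of that sum. Cd3d had 1263, 1452, 952, 1057 and 987 CPM in the Tfr, Tfh, Treg, stimulated and resting gates, and no neighbours in that order had overlapping intervals. Cd3g had 1171, 1488, 974, 1174 and 989 CPM in those gates, with the stimulated and Tfr gates overlapping, as did the resting and Treg gates. Cd3e had 409, 509, 363, 435 and 355 CPM, and only the Tfh gate stood apart from its neighbour. Cd247, the least abundant chain here, had 170, 216, 147, 205 and 184 CPM, and every neighbour in its order overlapped the next.

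The proportions of the 4 chains differed by a few percentage points across the T cell gates. Cd3d took between 36.8% (stimulated) and 41.9% (Tfr) of chain UMIs, Cd3g between 38.8% (Tfr) and 40.9% (stimulated), and Cd3e between 13.6% (Tfr) and 15.1% (stimulated). The Cd3d shares of the Tfr gate (40.1 to 43.8) and the stimulated gate (35.6 to 38.1) were apart by more than counting error. Cd247 took 7.13% (6.49 to 7.81) in the stimulated gate and 7.31% (7.11 to 7.51) in the resting gate, against 5.66% (4.83 to 6.58) in the Tfr, 5.89% (5.60 to 6.19) in the Tfh and 6.03% (5.76 to 6.30) in the Treg gate. The zeta chain share was thus lower in the Tfr, Tfh and Treg gates than in the resting gate by more than counting error. In a 3′ library these are shares of molecules counted at the transcripts' ends and not of protein in the complex.

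Cd4 had 162, 235, 115, 166 and 155 CPM in the Tfr, Tfh, Treg, stimulated and resting gates, with the Tfh gate highest and the Treg gate lowest, each apart from its neighbour. The cells were sorted on CD4 protein, so its presence is a condition of the sort. Lck had 426, 586, 327, 451 and 434 CPM in the same gates and the same 2 extremes. Zap70 formed separate groups of gates: 188, 226 and 210 CPM in the Tfr, Tfh and stimulated gates, against 104 and 94.6 CPM in the Treg and resting gates. Lat had 483, 587, 428, 436 and 381 CPM in the Tfr, Tfh, Treg, stimulated and resting gates, a span of 1.54-fold. Lcp2 was the exception to the Tfh gate's first place, at 148, 149, 115, 187 and 90.4 CPM, with the stimulated gate highest and the Tfr and Tfh gates overlapping. Levels in the B cell gate were between 2.85% (Cd3g) and 15.3% (Zap70) of the lowest T cell gate.

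**Figure D2:**
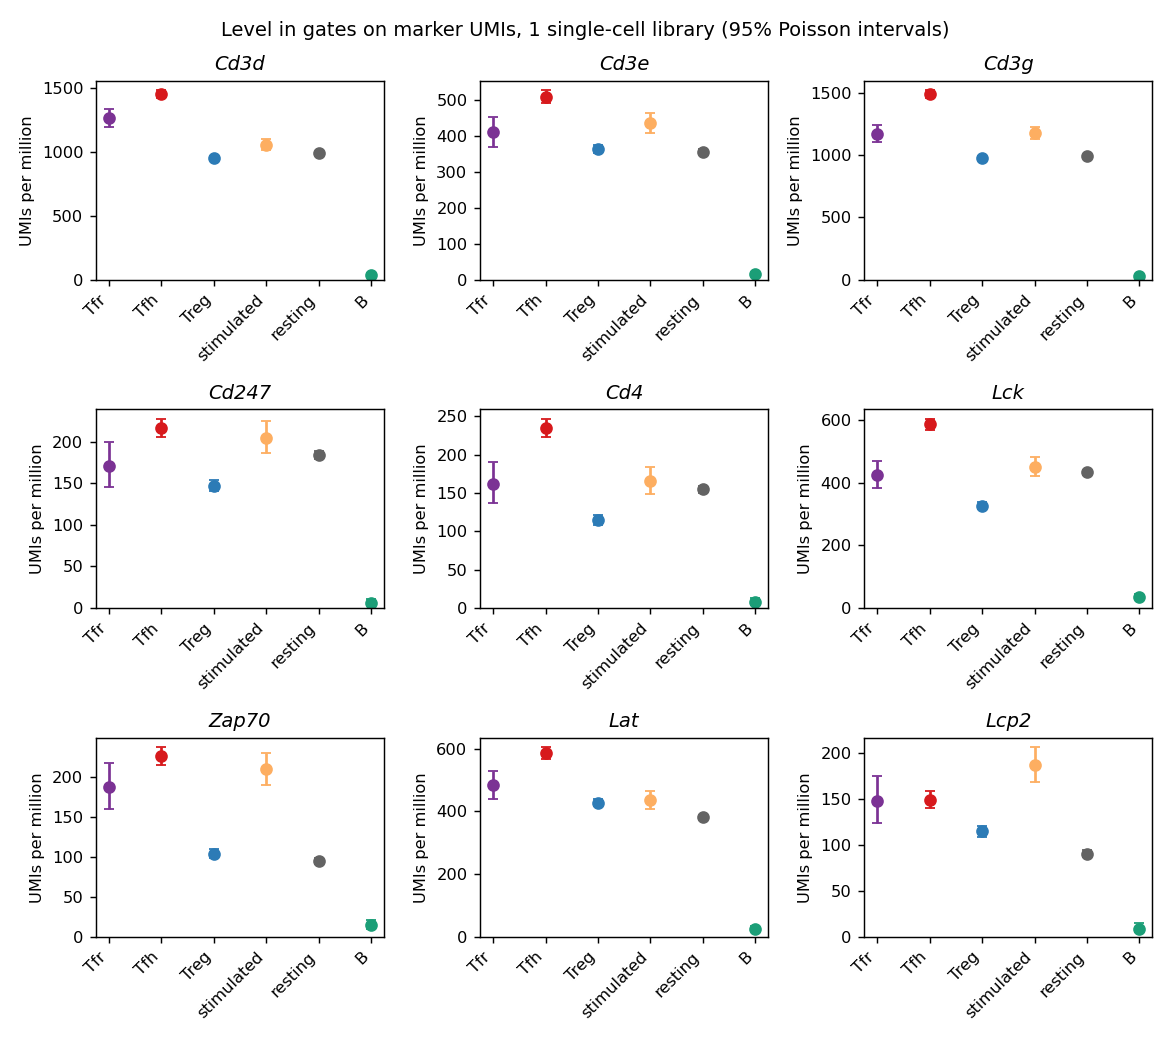
Level of each gene in CPM of UMIs (vertical axes, from 0) in the 5 T cell gates and the B cell gate of 1 single-cell library, with 95% Poisson intervals that cover counting error only. The Tfh gate is highest in 8 of 9 panels, the Zap70 panel splits into Tfr, Tfh and stimulated gates at 188 to 226 CPM and Treg and resting gates at 94.6 to 104 CPM, and Lcp2 is highest in the stimulated gate at 187 CPM.

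Gates were then compared in pairs, calling a gene apart where the higher level exceeded the lower by at least 25%, the Poisson intervals did not overlap and 1 gate had at least 20 CPM. By this rule stimulated cells were apart from resting cells in Zap70 and Lcp2 and in no other of the 9 genes. Cd3e (1.22-fold), Cd3g (1.19-fold), Lat (1.14-fold) and Cd3d (1.07-fold) were higher with intervals that did not overlap, but by less than 25%. Zap70 had 210 CPM in stimulated and 94.6 CPM in resting cells, 2.22-fold (2.00 to 2.46), and Lcp2 had 187 and 90.4 CPM, 2.07-fold (1.85 to 2.30); 95.2% and 94.3% of genes tested lay below these folds. The count of 2 higher and 0 lower stands against 36.4% of all 5360 genes higher and 5.93% lower. The median of all genes was 0.27 on the log2 scale, and that of the 9 genes 0.20; ribosomal protein genes took 31.5% of UMIs in stimulated and 39.5% in resting cells. Lck and Cd4, at 1.04-fold (0.972 to 1.11) and 1.07-fold (0.957 to 1.20), lay below the median of all genes. Cd3d, Cd3g, Cd247 and Lat lay below that median too, and only Cd3e, Zap70 and Lcp2 lay above it. With totals that leave out mitochondrial and ribosomal protein genes, Zap70 was at 1.93-fold, Lcp2 at 1.79-fold and the other 7 genes between 0.901 and 1.06-fold. The resting gate asked for Ccr7, which 81 of the 210 stimulated cells also had, so this pair differs in Ccr7 as well as Nr4a1. When all Foxp3-negative T cells outside the Tfh gate were split by Nr4a1 alone, both folds were smaller. Zap70 was then 1.81-fold (1.64 to 2.00) and Lcp2 1.81-fold (1.63 to 2.01) higher in the 210 cells with Nr4a1 than in the 7070 without. Zap70 stayed between 1.93 and 2.95-fold and Lcp2 between 1.79 and 3.05-fold over the 13 settings run for stimulated over resting cells. The number of other genes apart did change: 7 of 9 were higher with gates on 2 UMIs, which left 72 stimulated cells.

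Tfh cells had 8 of 9 genes higher than resting cells and 0 lower, against 47.4% and 7.1% of 5463 genes tested, and a median of 0.59 on the log2 scale, against 0.31 for all genes. Zap70 was 2.39-fold higher (2.24 to 2.55), at 226 CPM in Tfh and 94.6 CPM in resting cells, followed by Lcp2 at 1.65-fold (1.53 to 1.78) and Lat at 1.54-fold (1.48 to 1.60). Cd4 was 1.52-fold, Cd3d 1.47-fold, Cd3e 1.43-fold and Lck 1.35-fold higher, and Cd3g had 1488 CPM in Tfh and 989 CPM in resting cells. Cd247, at 1.17-fold with 216 and 184 CPM, was the gene not apart. With totals that leave out mitochondrial and ribosomal protein genes, 5 of 9 were apart, Zap70 was 1.99-fold and Lcp2 1.38-fold higher, and Cd3d and Lck were at 1.23 and 1.13-fold.

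Treg cells had a mixed pattern against resting cells, with 1 gene higher and 3 lower of 9, where 39.5% and 7.81% of 5364 genes were higher and lower. Lck was lower at 327 CPM in Treg and 434 CPM in resting cells, a ratio of 0.753 (0.726 to 0.781). Cd4 was lower at 115 and 155 CPM, a ratio of 0.741 (0.697 to 0.788), and Cd247 at 147 and 184 CPM, a ratio of 0.799 (0.756 to 0.843). Only 5.57% and 5.13% of genes had lower ratios than Lck and Cd4. Lcp2 was the gene called higher, at 1.27-fold (1.19 to 1.36), and Cd3d, Cd3e, Cd3g, Zap70 and Lat lay between 0.964 and 1.12-fold. With totals that leave out mitochondrial and ribosomal protein genes Lcp2 was at 1.05-fold and no gene was called higher, and Zap70 turned to 0.915. Lck and Cd4 stayed below 1 in all 12 settings, at 0.625 to 0.892 and 0.615 to 0.850, but without cycling cells, and with cells weighted equally, 0 of 9 genes were low enough to be called.

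Tfr cells had 5 of 9 genes higher than Treg cells and 0 lower, against 9.49% and 5.91% of 5668 genes. Zap70 had 188 CPM in Tfr and 104 CPM in Treg cells, 1.80-fold (1.53 to 2.11), and 97.1% of genes tested lay below it. Cd4 was 1.41-fold (1.18 to 1.67), Cd3d 1.33-fold (1.248 to 1.41), Lck 1.30-fold (1.17 to 1.44) and Lcp2 1.29-fold (1.07 to 1.54) higher. The median over the 9 genes was 0.37 on the log2 scale, against 0.08 for all genes tested. Only 73 cells make up the Tfr gate; with under 5% mitochondrial UMIs 47 remained and 2 of 9 genes were apart, and without cycling cells 39 remained and 8 of 9 were apart. Zap70 lay between 1.53 and 2.22-fold in all 12 settings.

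Between the follicular gates, Tfr cells had 0 of 9 genes higher than Tfh cells and 4 lower, against 9.9% and 7.45% of 5758 genes. Cd4 had 162 CPM in Tfr and 235 CPM in Tfh cells, a ratio of 0.690 (0.580 to 0.815), Lck 426 and 586 CPM, a ratio of 0.726 (0.653 to 0.805), Cd3g a ratio of 0.787 (0.738 to 0.837) and Cd247 one of 0.789 (0.666 to 0.930). Lcp2 was level at 0.992 (0.824 to 1.19). These 4 calls did not hold throughout. No gene, 0 of 9, was lower with equal weight per cell, with levels from thinned cells or without cycling cells; Cd3g and Cd247 turned to 1.02 and 1.01-fold without cycling cells, and Cd4 to 1.34-fold when cells were thinned before gating.

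**Figure D3:**
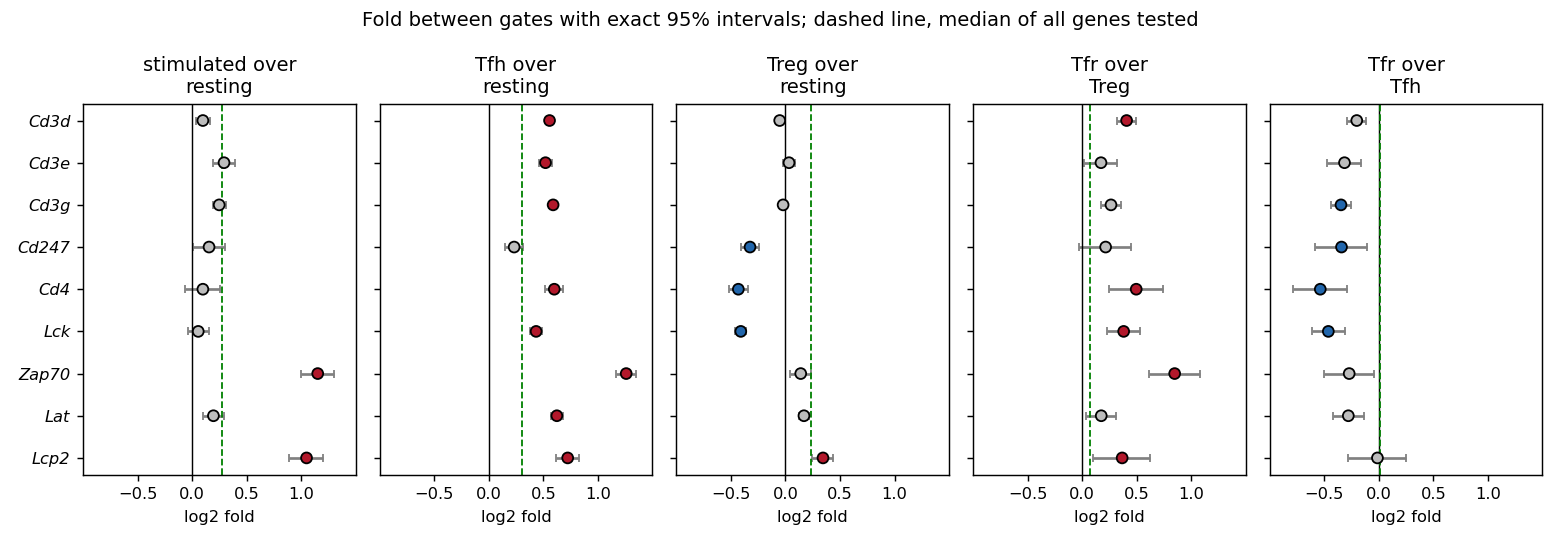
Log2 fold (horizontal axes) of the 9 genes in the 5 pairs of gates with exact 95% intervals; red and blue points are apart by the rule as higher and lower, grey points are not, and the dashed line is the median of all genes tested. Zap70 lies right of the dashed line by more than its interval in 3 pairs, stimulated and Tfh over resting and Tfr over Treg, and Tfr over Tfh has all 9 points at or left of 0.

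The pairs share cells, since resting, Treg, Tfh and Tfr cells each enter more than 1 comparison, so their folds are given side by side and not as repeats of each other. For Zap70 the folds were 2.22 (stimulated over resting), 2.39 (Tfh over resting), 1.10 (Treg over resting), 1.80 (Tfr over Treg) and 0.829 (Tfr over Tfh). For Lck they were 1.04, 1.35, 0.753, 1.30 and 0.726 in the same order.

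Levels were also read against the number of Nr4a1 UMIs in Foxp3-negative T cells outside the Tfh gate, with 7070, 138, 28, 22 and 22 cells at 0, 1, 2, 3 to 4, and 5 or more Nr4a1 UMIs. Egr1, which was not used in the gate, stood at 29.9, 120, 347, 429 and 794 CPM. Zap70 had 116, 181, 237, 320 and 281 CPM along these bins. Lcp2 had 103, 149, 227, 286 and 315 CPM. Both were higher at 1 UMI than at 0 by more than their intervals, 160 to 205 against 113 to 119 CPM for Zap70 and 130 to 171 against 100 to 106 CPM for Lcp2, and the bins with 2 or more UMIs overlapped each other. Median depth was 5745.5, 6667, 8810, 6206.5 and 6286 UMIs per cell along the bins, and its part in these levels was not tested. They were not the only genes above the cells without Nr4a1. Cd3e had 386, 385, 533, 503 and 591 CPM, level at 0 and 1 UMI, and from 2 UMIs on its lower bounds of 456, 404 and 483 CPM lay above the upper bound of 391 CPM at 0. Cd3g had 1085, 1116, 1281, 1275 and 1351 CPM, with lower bounds from 2 UMIs on of 1159 and 1113 CPM and higher, above the 1095 CPM that bounds the cells at 0. Lck had 448, 412, 495, 555 and 585 CPM, and its last bin (478 to 709) lay above the cells at 0 (442 to 454). Cd4 had 170, 139, 173, 297 and 236 CPM, lower at 1 UMI (120 to 160) than at 0 (166 to 173), and above it at 3 to 4 (222 to 390). Cd247 had 195, 193, 224, 234 and 231 CPM, with overlapping intervals. Lat had 430, 437, 460, 457 and 360 CPM. Cd3d had 1047, 1017, 1025, 1298 and 1199 CPM, and at 3 to 4 UMIs (1135 to 1478) it lay above the cells at 0 (1038 to 1056).

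**Figure D4:**
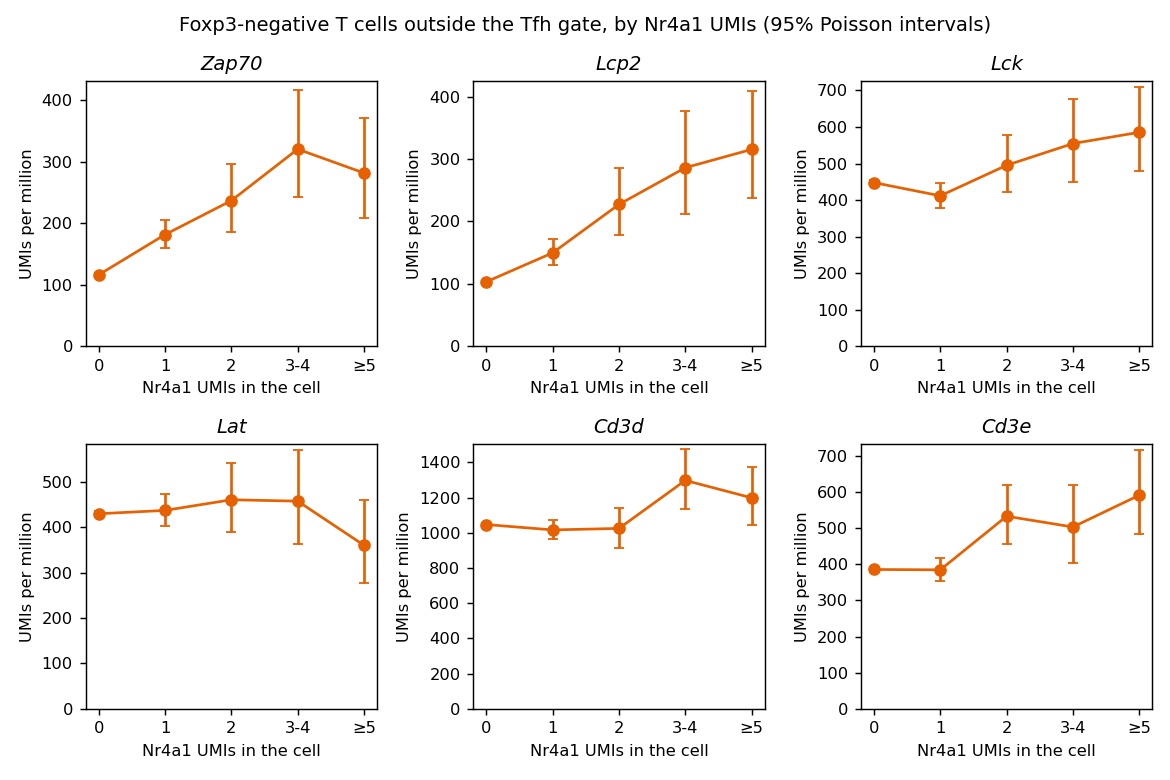
Level in CPM of UMIs (vertical axes, from 0) of 6 genes in Foxp3-negative T cells outside the Tfh gate, by the number of Nr4a1 UMIs in the cell (horizontal axes), with 95% Poisson intervals. Zap70 and Lcp2 are higher in each bin with Nr4a1 than at 0 UMIs, Lat lies between 430 and 460 CPM in the first 4 bins, and the last 2 bins hold 22 cells each.

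The same split was made within the Treg and Tfh gates. The 80 Treg cells with Nr4a1 had 147 CPM of Lcp2, against 113 CPM in the 1472 without, 1.31-fold (1.07 to 1.59), while Zap70 had 125 and 103 CPM, 1.22-fold with an interval that reached 0.976. Lat had 350 CPM in Treg cells with Nr4a1 and 433 CPM in those without, a ratio of 0.808 that fell short of the rule. In 49 Tfh cells with Nr4a1, Zap70 had 251 CPM, against 224 CPM in the 676 without, and its interval of 0.936 to 1.33 spanned equality. Whether the Zap70 difference depends on the cell gate was not tested.

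Shares of cells with a UMI were compared at equal depth, with each cell thinned to 3000 UMIs and 72 Tfr, 706 Tfh, 1431 Treg, 204 stimulated, 3630 resting and 283 B cells left; 1, 19, 121, 6, 117 and 35 cells of these gates were too shallow. Zap70 had a UMI in 43.1% of Tfr, 47.6% of Tfh, 27.8% of Treg, 43.6% of stimulated and 23.4% of resting cells, against 4.24% of B cells; before thinning the shares were 84.9%, 77.2%, 47.7%, 69.5%, 41.7% and 7.55%. Lcp2 had a UMI in 40.3%, 35.4%, 31.4%, 38.2% and 23.6% of the T cell gates at 3000 UMIs, against 2.12% of B cells, and in 76.7%, 66.3%, 51.8%, 60.5%, 41.7% and 4.40% before thinning. The Zap70 intervals of the Treg (25.5 to 30.2) and resting gates (22.1 to 24.9) lay below those of the Tfr (31.4 to 55.3), Tfh (43.9 to 51.4) and stimulated gates (36.7 to 50.7). Among the Tfr, Tfh and stimulated gates the intervals overlapped, and no order is read there for either gene. The B cell gate, whose cells should lack these genes, had a median of 4487.5 UMIs before thinning. For Cd4 the shares at 3000 UMIs were 40.3%, 53.0%, 29.1%, 43.1% and 37.1% in the T cell gates, against 3.89% in B cells, and Cd3g was near saturation, between 92.2% in Treg and 98.7% in Tfh cells.

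Per cell, a median of 6 of the 9 genes had a UMI at 3000 UMIs in the Tfr, Tfh and stimulated gates and 5 in the Treg and resting gates, against 0 in B cells. The 4 chains had a median of 11 UMIs in Tfr, 12 in Tfh, 8 in Treg, 9 in stimulated and 7 in resting cells. No chain UMI was seen in 6 of 1431 Treg and 12 of 3630 resting cells, and in 0 of 706 Tfh cells, which by the limit of 3 cells allows a share of up to 0.425%, 0 of 204 stimulated cells (up to 1.47%) and 0 of 72 Tfr cells (up to 4.17%). In the B cell gate 220 of 283 cells had none.

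**Figure D5:**
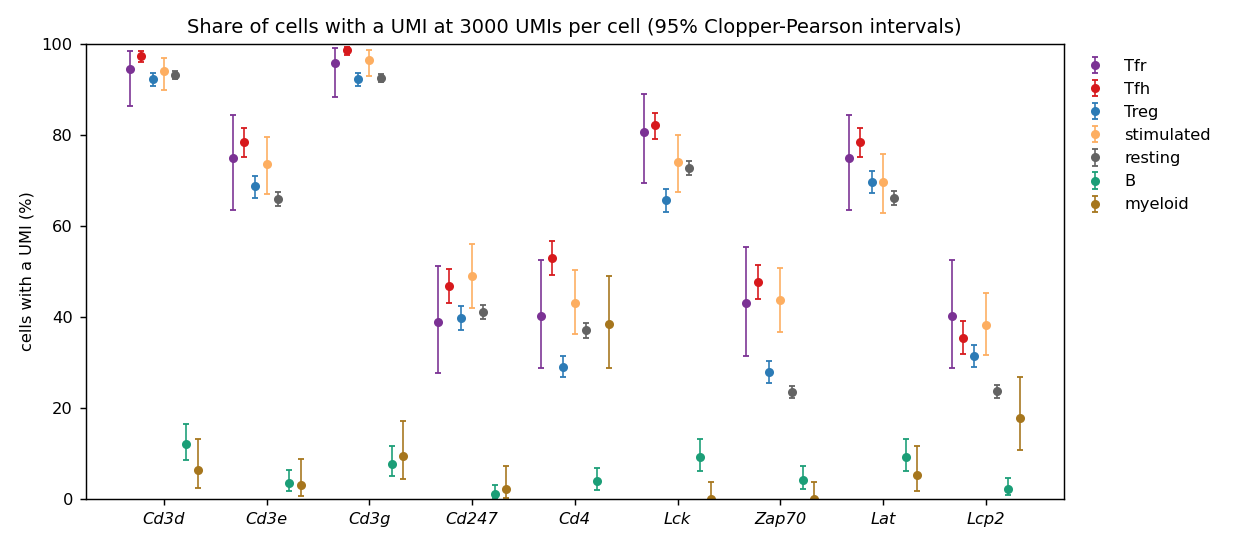
Share of cells with at least 1 UMI (vertical axis, percent) of each gene after thinning every cell to 3000 UMIs, by gate, with 95% Clopper-Pearson intervals. Cd3d and Cd3g lie above 90% in all T cell gates, Zap70 ranges from 23.4% of resting to 47.6% of Tfh cells, and Cd4 in myeloid cells (38.5%) lies within the range of the T cell gates.

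The pathway lists moved unevenly in the same gates. Between stimulated and resting cells, the LAT and SLP-76 complex had 2 genes higher and 4 lower of 15 tested, with Sh2d2a, an adaptor that binds Lck, at 138 and 73.3 CPM (1.89-fold) and Grap2, the adaptor Gads that links SLP-76 to LAT, at 61.5 and 109 CPM (0.567). Brakes had 8 higher and 2 lower of 18, led by Sla, an adaptor that lowers receptor levels, at 140 CPM in stimulated and 46.8 CPM in resting cells (2.99-fold). The calcium and NFAT branch had 2 higher and 0 lower of 13, Orai1 (2.90-fold) and Nfatc1 (2.87-fold). The background for these counts is the 36.4% higher and 5.93% lower given above.

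Against resting cells, Tfh cells had 10 of 19 brakes higher and 3 lower, and 7 of 13 calcium and NFAT genes higher and 1 lower, where 47.4% and 7.1% of all genes were. Nfatc1 had 144 CPM in Tfh and 43.1 CPM in resting cells (3.34-fold), Lax1 76.4 and 26.2 CPM (2.92-fold) and Fyn, the other Src family kinase of T cells, 372 and 138 CPM (2.69-fold). Txk, a Tec family kinase, was lower at 52.5 CPM in Tfh and 146 CPM in resting cells (0.360), as was Ppp3ca, a calcineurin subunit, at 5.50 and 30.9 CPM (0.178). Treg cells had Unc119, a chaperone that aids Lck and Fyn, at 80.4 CPM, against 26.5 CPM in resting cells (3.04-fold), and were lower in Themis, at 18.0 and 60.9 CPM (0.296). Tfr cells had Lax1 2.16-fold and Nfatc1 2.11-fold above Treg cells, while Themis was at 18.2 CPM in Tfr and 69.8 CPM in Tfh cells (0.261).

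Genes whose log2 level was most like that of the summed chains were sought over 7 populations, the 5 T cell gates, the B cell gate and the cells gated on NK genes, among 4688 genes with at least 20 CPM in resting cells. The highest Pearson r values were those of Gstp3 (0.998), Ubash3a (0.997), Cd28 (0.995), Vsir (0.995) and Cd27 (0.994). The points share 1 library and the B cell gate lies far below the others. Over the 5 T cell gates alone the r values were 0.882, 0.977, 0.980, 0.932 and 0.816. Cd28, the costimulatory receptor, had 238, 323, 203, 244 and 199 CPM in the Tfr, Tfh, Treg, stimulated and resting gates and 7.51 CPM in B cells.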

How the data were processed

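Bulk RNA of sorted Tfr cells was extracted with Trizol and turned into libraries by the NEBNext Ultra RNA kit; single cells were captured with the 10x 3′ kit v.2, per the labels' protocols. The submitters' processing notes name TopHat, Cufflinks, Bowtie2 and Cell Ranger 2.1.0, while the matrix header gives 3.1.0; the notes list builds mm9 and mm10 without roles, and the counter is not named. The authors deposited raw counts per gene for 1 library labelled KO and 1 labelled WT, whose column carries a number that the sample's title lacks, and raw UMI counts per barcode. The authors' deposited CPM values were close to counts over the library total, with a median quotient of 0.9997 (KO) and 0.9996 (WT). The authors' deposited ratio (fold), its log2 value and their p-value come from 1 library per group and were not used.

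CPM was computed from library totals of 27777625 (KO) and 18076300 (WT) counts, so that 3 counts, the floor, equal 0.108 and 0.166 CPM. Ratios carry exact conditional binomial 95% intervals and levels exact Poisson ones; reads without molecular identifiers make these counting errors only. Called genes had log2((KO + 1)/(WT + 1)) of at least 1 in size and 5 CPM in either library. Alternative scalings came from edgeR 4.0.16 and DESeq2 1.42.0 in R 4.3.3. No test was possible with 1 library per group.

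Of 15002 barcodes, 835 had under 500 genes and 977 at least 10% mitochondrial UMIs. Doublet scores (scanpy 1.11.5, Scrublet, without the 9 genes) were set for 13190 cells; the threshold found marked 1 cell and did not work, so the 1446 cells at or above the score that starts the top 10%, ties included, were left out. T cells had a UMI of Trac, Trbc1 or Trbc2 and at most 1 UMI each of B cell, myeloid and NK markers; 3795 fell into no gate. Thinning drew 3000 UMIs per cell. Shares carry Clopper-Pearson intervals, and a share of 0 the limit of 3 cells over the cells counted. Python 3.11.15, SciPy 1.17.1 and matplotlib 3.10.9 were used. The calls were also run on simulated Poisson counts, which hold no variation between cells or libraries, so that run cannot tell how such variation affects them.

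The genes, lists and rules were chosen with earlier results of these data known. Text names the 9 genes, up to 4 genes per pathway list by bulk log2 ratio, up to 3 per list and pair of gates by fold, and the 5 genes most like the summed chains; 1 list and a few genes are not reported here. Samples of Tfh and non-Tfh RNA and of open chromatin were not analysed here.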

Additional observations from a re-analysis of the deposited data

How the results depend on the processing

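No paired analysis was possible because each bulk group holds 1 library and the single cells come from 1 library. Among the bulk genes, 1 of 9 higher and 0 lower held under every alternative run (TMM, DESeq2 size factors, pseudocounts of 0.1 and 5 CPM, no filter, totals without mitochondrial genes and the top 100 genes). Over all results that answer a comparison, 109 values moved by less than 1.5 times and 27 by more, all 27 in single cells. Stimulated cells, with 2 of 9 genes above resting cells, had 7 with gates on 2 UMIs, 5 when cells were thinned before gating or without stimulated cells that had Ccr7, and 4 with the mean of per-cell CPM, without cycling cells or with the same gates thinned. Tfh cells (8 higher than resting) had 5 with totals free of mitochondrial and ribosomal protein genes and 5 at 1.5-fold. Treg cells (1 higher, 3 lower) had 2 higher when thinned before gating or without cycling cells and 0 higher with the reduced totals or at 1.5-fold; 0 were lower with per-cell means, thinned before gating, without cycling cells or at 1.5-fold, and 1 with the same gates thinned. Tfr cells had 5 genes above Treg cells, but 8 without cycling cells, 3 thinned before gating (10 Tfr cells), 2 under 5% mitochondrial UMIs, and 1 with gates on 2 UMIs (8 Tfr cells) or at 1.5-fold. Of 4 genes lower in Tfr than in Tfh cells, 0 were lower with per-cell means, thinned before gating, without cycling cells, at 1.5-fold or with the same gates thinned. Thinned before gating, the Tfr over Tfh folds of Cd3g, Cd247 and Cd4 turned to 1.17, 1.06 and 1.34, and without cycling cells those of Cd3g and Cd247 to 1.02 and 1.01. The cause was not tested. Without doublet removal, from 200 genes, or with T cells set by exclusion alone, no count moved by over 1.5 times. Among values of single genes, 340 moved by less than their interval, 213 by more and 5 of called genes turned in direction. A further 34 values of genes that were not called crossed equality, such as Zap70 and Lat in Treg over resting cells (0.915 and 0.934 with the reduced totals). Thinning inside the same gates was chosen after seeing the data. With 73 Tfr cells and 1 library, the intervals between gates cover counting error only.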

Other observations

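Cells that carried Ccr7, which guides T cells to the T zone, had several of the 9 genes lower by the rule in 2 of 3 populations split. Among Treg cells, the 478 with Ccr7 had 807 CPM of Cd3d, against 1035 CPM in the 1074 without, a ratio of 0.780 (0.749 to 0.811), with Cd3g at 0.736 and Zap70 at 83.6 and 116 CPM (0.720). Lck did not move with Ccr7 there, at 326 and 327 CPM (0.997). In Foxp3-negative T cells outside the Tfh gate, 3828 cells with Ccr7 had 96.7 CPM of Zap70, against 149 CPM in 3452 without, a ratio of 0.647 (0.615 to 0.682), and Lat and Lcp2 stood at 0.781 and 0.755. In the Tfh gate, 151 cells with Ccr7 and 574 without had 0 of 9 genes apart, with ratios from 0.810 (Lat) to 0.928 (Cd247). Median depth was higher in the cells with Ccr7, at 6566.5 against 5479.5 UMIs in Treg, 9334 against 6957.5 in Tfh and 6111 against 5222 in the other cells, and its part was not tested.

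Outside T cells, Cd4 and Lcp2 were the genes of the 9 that myeloid cells carried. In 139 cells gated on myeloid genes Cd4 had 202 CPM and Lcp2 84.9 CPM, while the 4 chains summed to 75.2 CPM and Zap70 had 4.30 CPM. Lck had a UMI in 10 of these cells (7.19%) and Zap70 in 4 (2.88%); at 3000 UMIs 0 of 96 had either, which at that depth allows a share of up to 3.12%. The 54 cells gated on NK genes carried the chains at 2298 CPM, Lck at 405 CPM and Cd4 at 159 CPM. That gate did not exclude receptor chain genes, and 52 of the 54 had a UMI of one. These levels are therefore not read as levels outside T cells. In Tfh cells, the 49 with Nr4a1 had 176 CPM of Cd4, against 240.0 CPM in the 676 without, a ratio of 0.735 (0.593 to 0.901).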
